A study of Arabidopsis thaliana with 12 samples.

Results

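Cytochrome P450s (CYP), UDP-dependent glycosyltransferases (UGT) and glutathione S-transferases (GST) are 3 large enzyme classes that plants use to build and to inactivate small molecules. Members were the array's probe sets assigned to a single gene whose platform symbol follows the naming of 1 of these classes: a P450 family, subfamily and member name, any numbered UGT, or a GST of the F (phi), U (tau), L (lambda), T (theta) or Z (zeta) class. This gave 82 genes, each with 1 probe set, of the 22746 probe sets that are not array controls: 22 P450s, 47 UGTs and 13 GSTs. The symbols of the current RefSeq table (TAIR10.1) gave the same 82.

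Plant P450s are haem-containing monooxygenases. Most are made on ribosomes at the endoplasmic reticulum (ER), stay held in its membrane by an N-terminal anchor with the catalytic domain facing the cytosol, and receive electrons from a reductase in the same membrane. UGTs attach a sugar to hormones, phenolics and foreign compounds, and GSTs attach glutathione to reactive ones. Both kinds are mostly soluble enzymes made on free ribosomes, so that the classes act on similar chemicals while their messages are translated in different places. IRE1 is a stress sensor in the ER membrane whose RNase domain, on the cytosolic side, splices a transcription factor message and in several organisms also cuts messages at the ER surface.

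The arrays compare ire1a ire1b double mutant and wild-type Arabidopsis thaliana seedlings of the Columbia (Col-0) ecotype, 10 days old and grown at 22 °C. Both genotypes were kept for 5 h with tunicamycin (5 mg per litre) or with DMSO, its solvent (mock), and every group, mock included, had been given the transcription inhibitor actinomycin D at 75 µM 2 h earlier. Tunicamycin blocks N-glycosylation and leaves misfolded protein in the ER. Each of the 4 groups holds 3 arrays of whole-seedling total RNA. The labels name no mutant alleles. They also leave unsaid whether the 3 samples of each group were grown separately, so the p-values cover the scatter of these samples alone, and that scatter may be technical. In such bulk RNA, fewer cells of a type and less RNA per cell cannot be told apart.

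The values are MAS5 signals on a common level: the trimmed mean was 500.1 on every array and the median lay between 107.0 and 119.2. Scaling to a target was inferred from these equal means, as no target is stated. Each change is therefore relative to the bulk of the array. No probe set carries the name IRE1A or IRE1B here, so the genotype labels could not be checked on those genes. RNA integrity was read from the mean 3' over 5' ratio of 5 pairs of control probe sets, which cover GAPDH, actin and ubiquitin. It was 1.47 ± 0.16 in wild-type tunicamycin and 1.37 ± 0.03 in wild-type mock arrays (log2, SD, n = 3), with an exact permutation p of 0.4, two-sided. Its other comparisons gave exact p of 0.7 to 0.9, and 3 arrays against 3 cannot go below 0.1. Of the tissue markers with a named probe set, the chlorophyll-binding protein gene LHCB4.1 differed by 0.04 ± 0.09 in wild type (log2 ± SE, limma adjusted p = 0.856). The root and ER body gene PYK10 fell to 10067 ± 379 in wild-type tunicamycin arrays, against 22998 ± 928 in wild-type mock arrays (signal, SD, n = 3; limma adjusted p = 3.72e-07). In ire1a ire1b it was 24641 ± 1161 under tunicamycin and 23105 ± 816 under mock. The root hair gene EXPA7, too dim to be tested, had 65.2, 38.3 and 37.5 in wild-type tunicamycin arrays, against 80.6, 68.8 and 76.0 in wild-type mock arrays. In ire1a ire1b it had 43.6, 64.1 and 63.8 under tunicamycin, against 98.4, 70.4 and 74.0 under mock, so it lay lower under tunicamycin in both genotypes. The part of root cells in the results that follow was not tested.

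A probe set was tested when its mean log2 signal over the 12 arrays was above the 40th percentile, 6.10 (a signal of 68.7), which held for 13647 probe sets and 43 members. These were 9 P450s, 23 UGTs and 11 GSTs, leaving 13 P450s, 24 UGTs and 2 GSTs too dim. The last P450 below the limit was CYP71B28, with a geometric mean signal of 68.4, and the first above it was CYP71B37, with 115. Tests were two-sided limma contrasts with Benjamini-Hochberg adjustment over all 13647 probe sets, and a change was called at an adjusted p below 0.05.

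The P450 class measured here is narrow. CYP71B, a single large subfamily, makes up 18 of the 22 genes and 8 of the 9 tested ones. The ninth tested P450 is CYP84A4, a relative of the lignin enzyme ferulate 5-hydroxylase that acts in arabidopyrone synthesis. CYP51G2, CYP78A9 and CYP79A2 were below the limit, and CYP51G2 and CYP71B27 are annotated as transcribed pseudogenes. None of the 22 belongs to the chloroplast families CYP74, CYP97 or CYP701. No named probe set was found for the listed P450s of sterol and brassinosteroid synthesis, other hormones, fatty acids and cutin or triterpenes, or for the P450 reductases and other partners. The membrane anchor was not checked here, since no protein sequences were used, so nothing below bears on P450s at large. The transferases are more varied: the 47 UGTs span 21 subfamilies, with 5 genes each in UGT71C and UGT85A, and the GSTs are 11 tau-class genes, the phi-class GSTF4 and the lambda-class GSTL3.

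In wild-type seedlings under tunicamycin, 2 of the 8 tested CYP71B transcripts fell, and no UGT or GST transcript was called. Of the 9 tested P450s, CYP71B5 and CYP71B6 fell and none rose, whereas 5.77% of all tested probe sets fell and 0.432% rose. None of the 23 UGTs or 11 GSTs passed in either direction. At an unadjusted p below 0.05, 7 of the 9 P450s were lower, against 10.2% of all tested probe sets, and 1 GST was higher, against 5.11%. The median change was -0.60 for P450s, +0.06 for UGTs and +0.13 for GSTs, beside +0.09 for all tested probe sets (log2). P450 changes ran between -1.24 and +0.17, those of UGTs between -0.17 and +0.47 and those of GSTs between -0.01 and +0.49, with 8 of 9 P450s, 9 of 23 UGTs and 1 of 11 GSTs negative, beside 33.2% of all tested probe sets. Among the 6695 tested probe sets with a mean signal in the range of the tested P450s, 4.96% fell, so the background there was close to that of the whole table.

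CYP71B6 acts on indole-3-acetonitrile, a compound of camalexin and indole glucosinolate metabolism. Its signal was 304.7, 317.3 and 305.8 on the 3 wild-type tunicamycin arrays, against 484.3, 589.9 and 520.6 on the wild-type mock arrays. On ire1a ire1b arrays it was 660.2, 625.9 and 635.5 under tunicamycin, against 686.1, 654.7 and 671.1 under mock. The wild-type groups were well apart, and the mutant groups overlapped. In wild type CYP71B6 fell by 0.78 ± 0.11 on the log2 scale (limma adjusted p = 0.000367).

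CYP71B5 had signals of 203.8, 195.1 and 189.7 in wild-type tunicamycin arrays, against 443.2, 642.8 and 349.3 in wild-type mock arrays. The ire1a ire1b arrays gave 679.5, 757.1 and 293.9 under tunicamycin, against 478.1, 809.4 and 392.9 under mock. The wild-type tunicamycin arrays lay close together below all others, while the other 3 groups spread widely, each with its highest value on array 2 and its lowest on array 3. CYP71B5 fell by 1.24 ± 0.34 in wild type (log2, limma adjusted p = 0.0426). This call lay near the threshold. It was lost in 6 of 12 fits that each left out 1 array, whereas CYP71B6 was called in 12 of 12. In those 6 fits the log2 change still ran from -1.273 to -1.005. The smallest change was without wild-type mock array 2 (limma adjusted p = 0.203). The call was also lost without ire1a ire1b mock array 1, which is not in this comparison (-1.241, limma adjusted p = 0.0605).

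The other 6 tested CYP71B genes gave negative wild-type changes that did not pass. CYP71B23 had 383.2, 356.3 and 295.9 in wild-type tunicamycin arrays, against 722.7, 992.0 and 447.2 in wild-type mock arrays, a difference of -0.996 ± 0.28 (log2, limma adjusted p = 0.0543). CYP71B24 had 117.4, 134.9 and 103.5 under tunicamycin, against 211.3, 254.9 and 192.0 under mock, a difference of -0.89 ± 0.26 (limma adjusted p = 0.0627). Both genes had all tunicamycin arrays below all mock arrays, as did CYP71B26 (-0.56 ± 0.18, limma adjusted p = 0.107), CYP71B37 (-0.56 ± 0.22, 0.212), CYP71B34 (-0.38 ± 0.17, 0.293) and CYP71B22 (-0.60 ± 0.50, 0.617). That made 8 of 9 tested P450s whose wild-type tunicamycin arrays all lay below the mock arrays, against 11.8% of all tested probe sets. The exception was CYP84A4, with 225.1, 182.7 and 184.3 in wild-type tunicamycin arrays, against 176.6, 185.8 and 161.7 in wild-type mock arrays (+0.17 ± 0.25, limma adjusted p = 0.785).

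**Figure D1:**
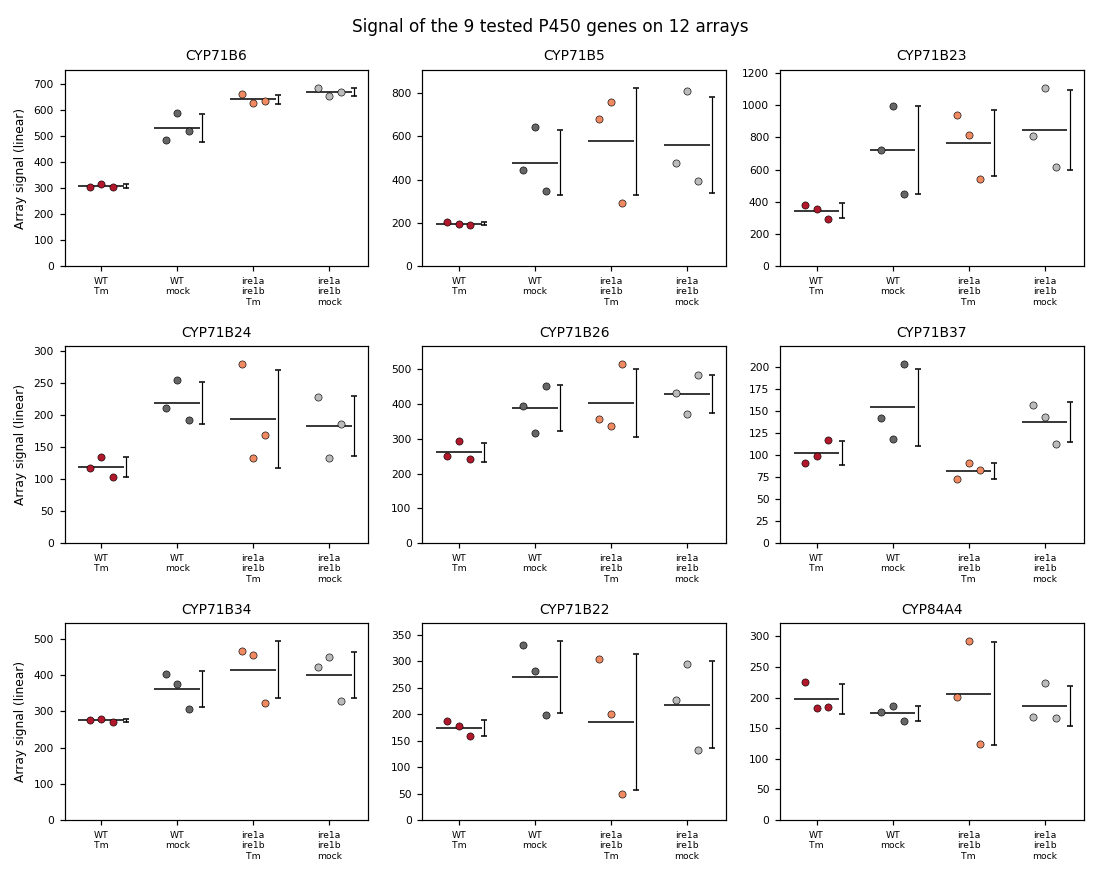
MAS5 signal (linear, y axis) of the 9 tested P450 genes on each array, in the order wild-type tunicamycin, wild-type mock, ire1a ire1b tunicamycin and ire1a ire1b mock; dots are arrays, lines group means and bars SD (n = 3). In the 8 CYP71B panels the wild-type tunicamycin dots all lie below the wild-type mock dots, and in the CYP84A4 panel they overlap.

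The CYP71B genes are not independent of each other in sequence or position. RefSeq protein-coding genes and pseudogenes were put in order of their start on the chromosome. In that order 10 neighbouring P450 genes between CYP71B16 and CYP71B24 hold 5 members, of which CYP71B22, CYP71B23 and CYP71B24 were tested. A second run of 8 genes between CYP71B25 and CYP71B37 holds 6 members, of which CYP71B26, CYP71B34 and CYP71B37 were tested. CYP71B6 and CYP71B5 lie elsewhere, CYP71B5 beside CYP71B30P. Probe sets of such similar copies may take up RNA of their neighbours, which was not tested. One probe set assigned jointly to CYP71B20 and CYP71B19, both of the first run, is no member, and was picked out after its values were seen. Its signals were 182.2, 227.0 and 155.2 in wild-type tunicamycin arrays, against 521.8, 476.3 and 377.2 in wild-type mock arrays, a fall of 1.29 ± 0.16 on the log2 scale (CYP71B20;CYP71B19, limma adjusted p = 0.00014). On ire1a ire1b arrays it had 506.9, 505.3 and 439.9 under tunicamycin, against 473.7, 451.1 and 456.9 under mock, and its interaction of tunicamycin and genotype was -1.36 ± 0.22 (limma adjusted p = 0.00345).

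The 13 dim P450s could be compared only in a fit of all 22746 probe sets. There 2 of 22 P450s fell in wild type, CYP71B6 and the dim CYP78A9, a gene known for fruit and seed growth, beside 3.11% of all probe sets. CYP71B5 did not pass there (limma adjusted p = 0.0712). CYP78A9 had signals of 33.54, 38.91 and 26.64 in wild-type tunicamycin arrays, against 108.7, 92.31 and 104.0 in wild-type mock arrays (-1.64 ± 0.37, limma adjusted p = 0.0226). On ire1a ire1b arrays it gave 64.03, 68.69 and 48.25 under tunicamycin, against 71.29, 28.73 and 75.37 under mock. Of the 22 P450s 17 were negative in that fit (the positive ones being CYP84A4 and the dim CYP71B25, CYP71B27, CYP71B36 and CYP71B38), with a median of -0.56, against 22 of 47 UGTs with a median of +0.01 and 2 of 13 GSTs with a median of +0.13. Over all 22746 probe sets 36.0% were negative, with a median of +0.095.

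Among the transferases, the tau-class GSTU22 had the smallest wild-type p. Its signals were 860.7, 925.0 and 778.5 in wild-type tunicamycin arrays, against 684.6, 592.8 and 554.1 in wild-type mock arrays, so the groups did not overlap, but the difference of +0.49 ± 0.16 did not pass (log2, limma adjusted p = 0.122). GSTU28 also had all tunicamycin arrays above all mock arrays, and it differed by +0.20 ± 0.16 (limma adjusted p = 0.613). These were 2 of 11 GSTs, against 14.2% of all tested probe sets without overlap in that direction. GSTU26 (+0.20 ± 0.17) and GSTU16 (+0.34 ± 0.30) overlapped.

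The UGTs with the smallest wild-type p were UGT78D2, a flavonol 3-O-glucosyltransferase, at +0.30 ± 0.14 (log2, limma adjusted p = 0.339), UGT71C4 at +0.47 ± 0.27 (0.451), UGT87A2 at +0.24 ± 0.16 (0.519) and UGT76D1 at +0.26 ± 0.20 (0.582). UGT78D2 and UGT71C4 were the 2 of 23 UGTs without overlap, both higher, a smaller share than the 14.2% of all tested probe sets in that direction. UGT78D2 had 217.9, 191.6 and 210.5 in wild-type tunicamycin arrays, against 187.0, 155.4 and 161.1 in wild-type mock arrays.

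The transferases with the highest mean signals gave small differences. UGT72E1, which glucosylates lignin precursors, had 1795, 1735 and 1144 in wild-type tunicamycin arrays, against 1583, 1740 and 1258 in wild-type mock arrays (+0.01 ± 0.28). UGT74B1, an enzyme of glucosinolate synthesis, had 1015, 967.0 and 1227 under tunicamycin, against 888.4, 1041 and 1291 under mock (+0.00 ± 0.14). UGT88A1 (+0.07 ± 0.12) and UGT71C5 (-0.08 ± 0.15) were also near 0. Among GSTs, GSTU20 had 5931, 6787 and 7608 in wild-type tunicamycin arrays, against 6521, 5520 and 8087 in wild-type mock arrays (+0.02 ± 0.18). GSTU25, known for the detoxification of trinitrotoluene, averaged 5248 in wild-type tunicamycin and 4697 in wild-type mock arrays (+0.15 ± 0.22), and GSTU27 differed by +0.05 ± 0.16. GSTL3, with 4989, 5376 and 4777 under tunicamycin against 5082, 4811 and 5291 under mock, differed by -0.01 ± 0.08. For these 8 genes the wild-type groups overlapped, and the lowest limma adjusted p was 0.782, of GSTU25. The gene of glutathione reductase GR1, which keeps the GST substrate reduced and is no member, differed by -0.04 ± 0.10 (limma adjusted p = 0.897).

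**Figure D2:**
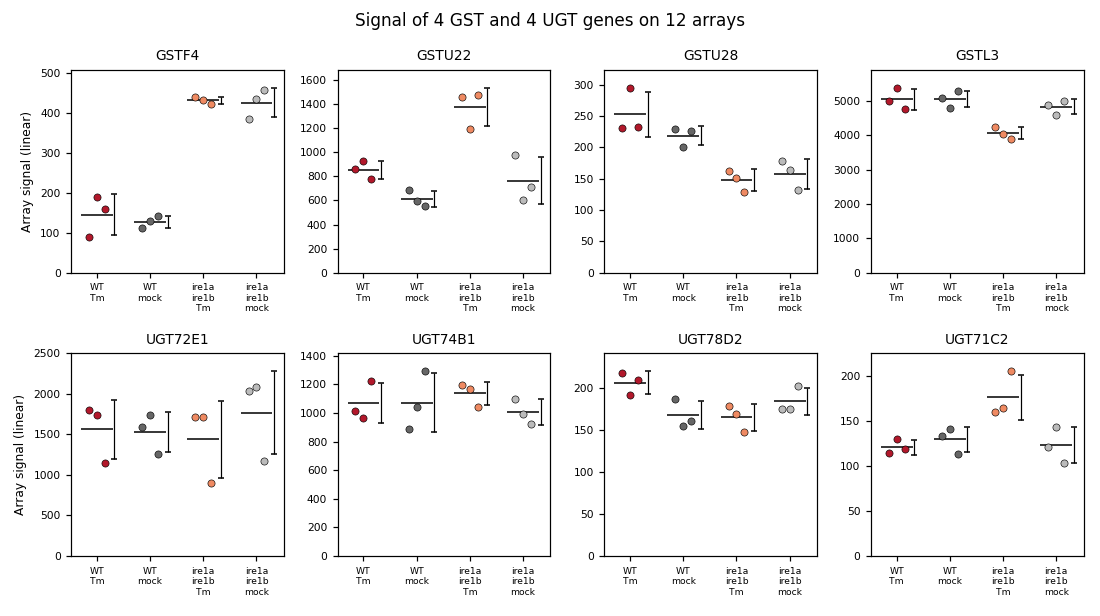
MAS5 signal (linear, y axis) of 4 GST and 4 UGT genes on each array, in the order wild-type tunicamycin, wild-type mock, ire1a ire1b tunicamycin and ire1a ire1b mock; dots are arrays, lines group means and bars SD (n = 3). GSTF4 and GSTU28 separate the genotypes under both treatments, while UGT72E1 and UGT74B1 overlap in all comparisons.

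In ire1a ire1b seedlings no member passed. All tested probe sets gave 6 rises (0.044%) and 0 falls (0.0%) in limma, or 11 rises with the replicate number as a block, with 1.33% lower and 2.34% higher at an unadjusted p below 0.05. The median change was -0.07 for P450s, +0.14 for UGTs and +0.02 for GSTs, beside +0.01 for all tested probe sets (log2). At an unadjusted p below 0.05, 1 P450 and 1 GST were lower, and 3 UGTs and 2 GSTs were higher.

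GSTU22 had the smallest p of the members here. Its signals were 1454, 1190 and 1475 in ire1a ire1b tunicamycin arrays, against 979.2, 607.6 and 708.5 in ire1a ire1b mock arrays, with no overlap and a difference of +0.87 ± 0.16 (log2, limma adjusted p = 0.170). Arrays with the same number varied together in this comparison, and with the replicate number as a block GSTU22 passed (limma adjusted p = 0.0393). CYP71B37 was the lower P450, with 72.72, 90.79 and 83.50 under tunicamycin, against 157.5, 143.8 and 112.6 under mock (-0.74 ± 0.22, limma adjusted p = 0.897). It was the only one of the 9 tested P450s without overlap in the mutant, where 2.71% of all tested probe sets lay wholly below mock. GSTL3 (-0.25 ± 0.08) and UGT71B1 also lay wholly below mock, and UGT71C2 (+0.53 ± 0.17), UGT85A2 (+0.52 ± 0.22) and UGT76C2, a cytokinin N-glucosyltransferase, wholly above, where 3.96% of all tested probe sets did. The 2 P450s called in wild type gave -0.07 ± 0.11 (CYP71B6) and -0.00 ± 0.34 (CYP71B5).

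**Figure D3:**
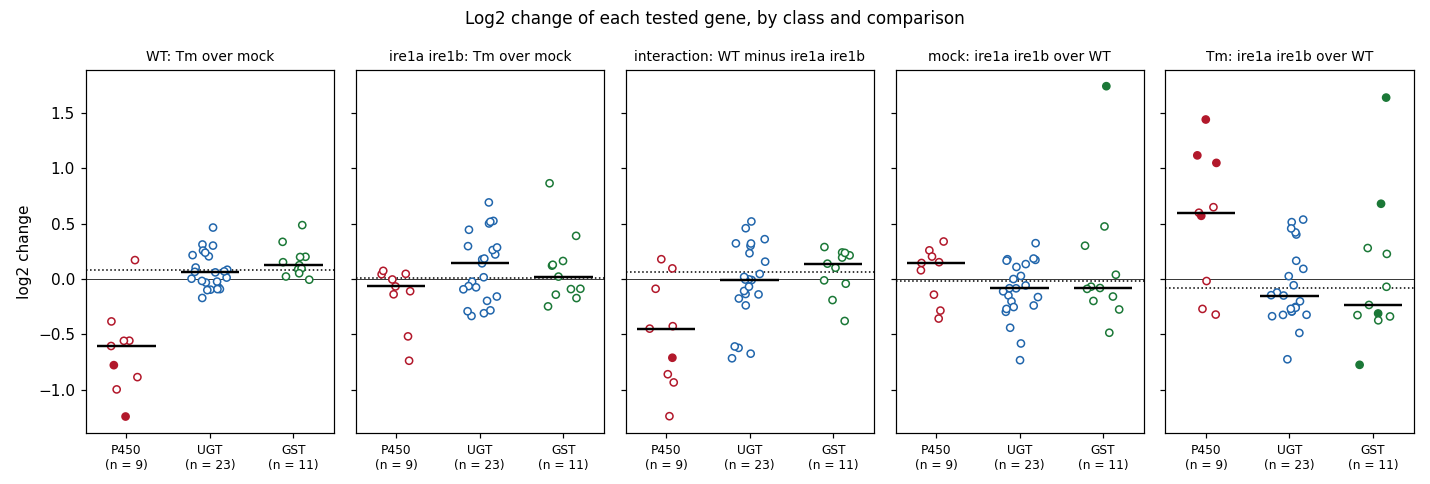
Log2 change of each tested P450 (9), UGT (23) and GST (11) in the 5 comparisons, 1 panel each; filled points passed at an adjusted p below 0.05, the thick line is the class median and the dotted line the median of all tested probe sets. P450 points lie lowest in the wild-type tunicamycin panel (median -0.60) and highest in the panel of ire1a ire1b against wild type under tunicamycin (median +0.60).

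Whether the response to tunicamycin differed between genotypes was tested as an interaction, the wild-type change minus the ire1a ire1b change. It passed for 1 member, CYP71B6, at -0.71 ± 0.15 (log2, limma adjusted p = 0.0190), where 2.98% of all tested probe sets passed downward and 0.0879% upward. Leaving out single arrays kept this call in 9 of 12 fits, and the call was lost without wild-type mock array 2 (limma adjusted p = 0.0621), without array 1 of the wild-type tunicamycin group (0.0534) or without array 1 of the ire1a ire1b tunicamycin group (0.0522). The median interaction was -0.45 for P450s, -0.00 for UGTs and +0.14 for GSTs, beside +0.07 for all tested probe sets.

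The interaction of CYP71B5 was as large as its wild-type change but was not called, at -1.24 ± 0.48 (limma adjusted p = 0.287), and CYP71B24 (-0.93 ± 0.37, 0.302) and CYP71B23 (-0.86 ± 0.40, 0.439) did not pass either. These 3 and CYP71B6 were the 4 of 9 P450s below an unadjusted p of 0.05, against 8.49% of all tested probe sets. CYP71B37 ran the other way at +0.18 ± 0.31, its signal being lower under tunicamycin in both genotypes. CYP84A4 was also positive at +0.10 ± 0.35. CYP71B22 gave -0.09 ± 0.71, with changes of -0.60 ± 0.50 in wild type and -0.52 ± 0.50 in ire1a ire1b. With the replicate number as a block, 3 P450s passed the interaction: CYP71B6 (limma adjusted p = 0.0180), CYP71B5 (0.0344) and CYP71B23 (0.0482). Of all 13647 tested probe sets, 605 passed downward and 17 upward with the block, against 406 and 12 without it. Same-numbered arrays varied together in ire1a ire1b but not in every wild-type pair, so which P450s other than CYP71B6 responded differently depends on the block.

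No transferase passed the interaction, and at an unadjusted p below 0.05 1 UGT was lower and 2 were higher, against 8.49% and 2.87% of all tested probe sets. Among UGTs, UGT71C2 gave -0.62 ± 0.25 (log2, limma adjusted p = 0.311), UGT87A2 +0.52 ± 0.22 (0.370), UGT78D2 +0.46 ± 0.20 (0.399) and UGT85A2 -0.61 ± 0.31 (0.510). Among GSTs, GSTL3 gave +0.24 ± 0.12 (limma adjusted p = 0.480), GSTU22 -0.38 ± 0.23 (0.612), GSTU28 +0.29 ± 0.23 (0.734) and GSTU26 -0.19 ± 0.24 (0.849). Their directions were mixed within each class.

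**Figure D4:**
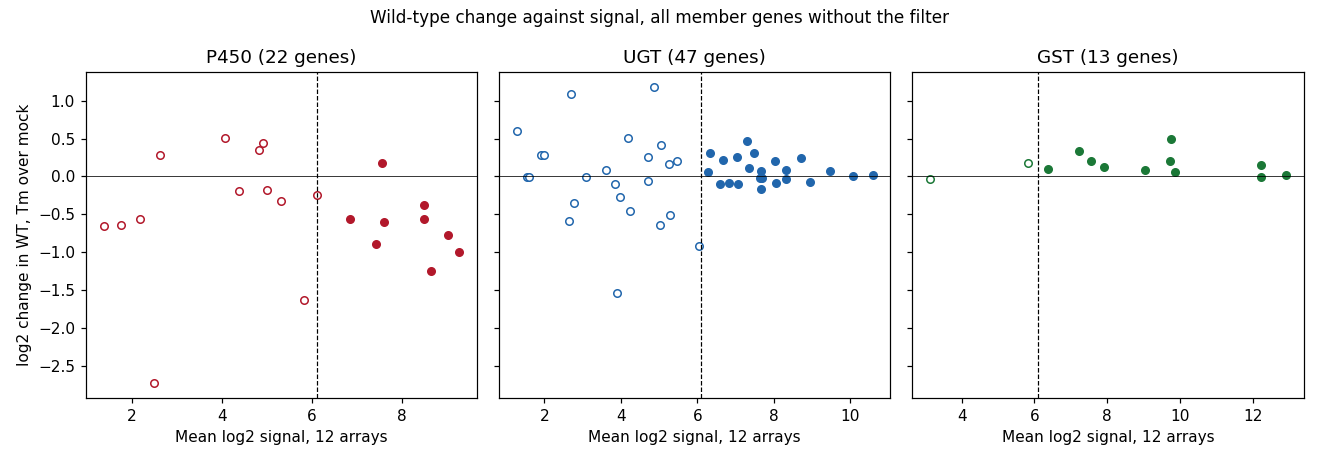
Log2 change of all 82 members in wild type, tunicamycin against mock (y axis), by mean log2 signal over the 12 arrays (x axis); filled points were tested, open points were below the limit of 6.10 (dashed line). Changes scatter widely among the open points. Among the filled ones the CYP71B genes lie lower than the UGTs and GSTs, and the other P450, CYP84A4, lies in their range.

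Between the genotypes under mock, 1 member differed. The phi-class GSTF4 had signals of 386.7, 435.5 and 458.0 in ire1a ire1b mock arrays, against 112.0, 128.8 and 142.6 in wild-type mock arrays. It was higher by 1.74 ± 0.22 (log2, limma adjusted p = 0.00241) in the mutant, 1 of 11 GSTs against 0.161% of all tested probe sets higher and 0.322% lower (22 and 44 probe sets, 22 and 28 after median centring of the arrays, and 309 and 598 with array weights). No P450 or UGT passed. CYP71B6 was the P450 whose mutant arrays all lay above wild type, at +0.34 ± 0.11 (limma adjusted p = 0.358). At an unadjusted p below 0.05, 1 P450 was higher, 3 UGTs were lower, and 1 GST was lower and 2 higher, against 5.39% of all tested probe sets lower and 2.69% higher. Without overlap, 1 UGT (UGT85A2) and 2 GSTs (GSTU18 and GSTU28) lay wholly below wild type and 1 P450 and 1 GST wholly above, against 8.39% and 5.32% of all tested probe sets. The medians were +0.15 for P450s, -0.08 for UGTs and -0.08 for GSTs, beside -0.02 for all tested probe sets.

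Under tunicamycin the genotypes differed more. In ire1a ire1b 4 of 9 P450s were higher than in wild type and none lower, where 6.68% of all tested probe sets were higher and 3.03% lower (911 and 413 probe sets, or 1081 and 264 with each array centred on its median). Of 11 GSTs 2 were higher and 2 lower, and no UGT passed. At an unadjusted p below 0.05, 6 P450s, 1 UGT and 2 GSTs were higher, against 10.9% of all tested probe sets, and 4 UGTs and 2 GSTs lower, against 12.1%. The median difference was +0.60 for P450s, -0.15 for UGTs and -0.23 for GSTs, beside -0.08 for all tested probe sets (log2). This comparison, the wild-type one and the interaction all use the wild-type tunicamycin arrays, so they are not separate evidence.

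CYP71B6 averaged 640.6 ± 17.7 in ire1a ire1b tunicamycin arrays and 309.3 ± 6.97 in wild-type tunicamycin arrays (signal, SD, n = 3), a difference of +1.05 ± 0.11 (log2, limma adjusted p = 2.96e-05). CYP71B5 averaged 576.8 ± 248 in ire1a ire1b and 196.2 ± 7.10 in wild type (+1.44 ± 0.34, limma adjusted p = 0.0139). CYP71B23 averaged 764.5 ± 203 in ire1a ire1b and 345.1 ± 44.7 in wild type (+1.12 ± 0.28, limma adjusted p = 0.0221). CYP71B34 had 466.5, 454.8 and 324.2 in ire1a ire1b, against 277.1, 279.1 and 270.8 in wild type (+0.57 ± 0.17, limma adjusted p = 0.0489). These 4 genes and CYP71B26 (+0.60 ± 0.18, 0.0532) had all mutant arrays above all wild-type arrays, 5 of 9 P450s against 11.5% of all tested probe sets. CYP71B37 went the other way, with all mutant arrays below all wild-type arrays (-0.32 ± 0.22, limma adjusted p = 0.421). It was 1 of 9 P450s, against 16.3% of all tested probe sets. CYP71B22 (-0.27 ± 0.50) and CYP84A4 (-0.02 ± 0.25) were also negative, with overlapping groups. In all, 3 of 9 P450s were negative, against 62.9% of all tested probe sets. In fits without single arrays, 4 P450s became 1 without ire1a ire1b tunicamycin array 1 or without wild-type tunicamycin array 3. They became 2 without either array 2 of the tunicamycin groups. The matching counts over all tested probe sets are not given, so this drop cannot be read as particular to these arrays or genes. The CYP71B34 call was also lost without wild-type mock array 1, which is not in this comparison (+0.572, limma adjusted p = 0.0610). Without array 2 of ire1a ire1b tunicamycin, the calls of CYP71B5, CYP71B23 and CYP71B34 were lost. Of the 4 genes called with all arrays, only CYP71B6 was then left. CYP71B6 passed in 12 of 12 such fits, CYP71B5 in 9, CYP71B23 in 8 and CYP71B34 in 4.

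GSTF4 was again higher in the mutant, with 440.2, 434.5 and 423.2 in ire1a ire1b tunicamycin arrays, against 88.88, 189.3 and 158.9 in wild-type tunicamycin arrays (+1.64 ± 0.22, limma adjusted p = 0.000274). Its response to tunicamycin was small in both genotypes, +0.13 ± 0.22 in wild type and +0.02 ± 0.22 in ire1a ire1b, so its values separated by genotype and not by treatment. GSTF4 passed in 12 of 12 fits without single arrays in both genotype comparisons.

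GSTU22 was higher too, with 1373 ± 159 in ire1a ire1b and 854.7 ± 73.4 in wild-type tunicamycin arrays (+0.68 ± 0.16, limma adjusted p = 0.0171). Its call held in 9 of 12 fits without single arrays, and that of GSTU28 in 12 of 12. GSTU28 had 162.8, 151.1 and 128.2 in ire1a ire1b tunicamycin arrays, against 231.1, 294.3 and 231.6 in wild-type tunicamycin arrays. It was lower in the mutant, at -0.77 ± 0.16 (limma adjusted p = 0.00775), and it also lay wholly below wild type under mock, with 177.4, 163.1 and 131.5 in ire1a ire1b against 229.7, 200.8 and 225.6 in wild type (-0.48 ± 0.16, limma adjusted p = 0.414). GSTL3 had 4257, 4052 and 3901 in ire1a ire1b, against 4989, 5376 and 4777 in wild type, and was lower at -0.31 ± 0.08 (limma adjusted p = 0.0316). The GSTL3 call was lost with each array centred on its median (limma adjusted p = 0.154) and in 6 of 12 fits without single arrays. The GST class therefore held members that differed in opposite directions between the genotypes.

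Of the UGTs, UGT71C2 came nearest to the threshold at +0.54 ± 0.17 (log2, limma adjusted p = 0.0702), with mean signals of 176.1 in ire1a ire1b and 120.7 in wild-type tunicamycin arrays. UGT72E2, a monolignol glucosyltransferase, was at -0.49 ± 0.18 (limma adjusted p = 0.105), with means of 170.8 in ire1a ire1b and 240.4 in wild type. UGT71C1 was at -0.72 ± 0.29 (limma adjusted p = 0.138), with means of 247.5 in ire1a ire1b and 410.9 in wild type. UGT71C2 and UGT71C1 are neighbouring genes, and their differences had opposite signs. In all, 5 UGTs lay wholly below wild type and 2 wholly above, against 16.3% and 11.5% of all tested probe sets.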

How the data were processed

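The authors deposited 1 MAS5 intensity for each probe set and array, on a linear scale, per the submitters' processing notes. Which version and settings of MAS5 they used is not given in the sources used here. The platform's gene table named the probe sets. Of 22746 probe sets that are not controls 13513 had a single gene in it, 503 had several and 8730 had no entry; 5 of those with several hold a symbol of these classes and were not members.

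The deposited signals were log2-transformed and not normalized again. All 12 arrays entered 1 linear model with a mean for each group (limma 3.58.1 in R 4.3.3; eBayes, prior variance following intensity), which was first tested on simulated data. The 5 contrasts were those reported, and the 4 groups share 1 estimate of the spread. Values are log2 changes ± SE, or signal ± SD. The number of arrays limits the precision.

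Numbers were taken to pair arrays where all 3 same-number correlations of deviations exceeded 0.1, which held for tunicamycin and mock in ire1a ire1b (r of 0.112 to 0.507) and for no other comparison. The labels give the numbers but no reason for them, so the main fit has no block.

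Genes named were members past the threshold in any comparison, in each class the 4 of lowest p for wild type and for the interaction, the 4 of each class with the highest mean signal, and members of fixed side lists. Other named genes, among them CYP78A9, CYP71B19, CYP71B20 and those named for arrays without overlap, were chosen after their values were seen. Members and lists were chosen with earlier results of these data known. Matching lists by name gave 1 of 7 phenylpropanoid P450s (CYP84A4), 2 of 17 glucosinolate and camalexin P450s (CYP71B6 and the dim CYP79A2), 0 of 12 P450 partners, 1 of 17 glutathione genes (GR1), 0 of 12 conjugate transporters, 1 of 18 shoot markers (LHCB4.1) and 2 of 13 root markers (PYK10 and the dim EXPA7).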

Additional observations from a re-analysis of the deposited data

Results flagged for a closer look

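CYP71B6 was the member whose response to tunicamycin differed between the genotypes by a test of the difference itself. The wild-type change minus the ire1a ire1b change was -0.71 on the log2 scale (SE 0.15, limma with Benjamini-Hochberg adjustment, adjusted p = 0.0190). The gene fell by 0.78 in wild type and differed by -0.07 in ire1a ire1b.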

How the results depend on the processing

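Over all alternatives other than leaving out arrays, CYP71B6 stayed called in wild type (8 of 8) and in the interaction (7 of 7). Between genotypes under tunicamycin, CYP71B6, CYP71B5 and CYP71B23 stayed called in 8 of 8 and CYP71B34 in 5 of 8. GSTF4 stayed called in both genotype comparisons (8 of 8 each). P450s higher between genotypes under tunicamycin, 4 as reported, numbered 3 to 5. All tested probe sets higher there, 911 as reported, ranged from 765 with only the arrays compared to 1171 with array weights. The P450s lower in wild type, 2 as reported, were 4 with each array centred on its median or with quantile normalization, 5 with the replicate block, with array weights or with only the arrays compared, and 1 without the intensity trend. Falls over all 13647 tested probe sets were 788 as reported, 926 with median centring and 808 with quantile normalization. They were 978 with the replicate block, 1086 with array weights, 994 with only the arrays compared and 723 without the intensity trend. In the interaction P450s lower went to 3 with the replicate block or array weights, whose P450 median was -0.64. All tested probe sets lower in the interaction went from 406 to 605 with the replicate block and 853 with array weights. GSTs higher in ire1a ire1b were 1 with the replicate block, and GSTs higher in wild type 1 with only the arrays compared. There all tested probe sets gave 11 and 110 rises, against 6 and 59 as reported. Between genotypes under mock, GSTs higher were 2 with the replicate block and 3 with array weights, which also gave 1 P450 higher and 2 UGTs lower. All tested probe sets higher went from 22 to 41 with the replicate block and 309 with array weights. Those lower went from 44 to 598 with array weights. Under tunicamycin, UGTs higher were 1 with median centring, quantile normalization or no intensity trend, UGTs lower 1 with the replicate block, and GSTs lower 1 with median centring, no filter, no intensity trend or only the arrays compared. All tested probe sets higher, 911 as reported, were 1081, 989 and 839 in the first 3 of these. Those lower, 413 as reported, were 614 with the replicate block and 264, 337, 393 and 264 in the last 4, in that order. The UGT median in ire1a ire1b was +0.031 with array weights and -0.023 with a limit at the 60th percentile. The cause of these shifts was not tested. The replicate block ended no call of a member.

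Leaving out single arrays gave 1 to 4 P450s lower in wild type, with 1 without any wild-type tunicamycin array, wild-type mock array 1 or 2 or ire1a ire1b mock array 1, and 4 without ire1a ire1b mock array 2 or tunicamycin array 3. It gave 0 to 2 P450s lower in the interaction and 0 to 1 GST higher in ire1a ire1b. Between genotypes under tunicamycin it gave 1 to 5 P450s higher, and 1 to 2 GSTs lower and 1 to 2 higher. Counts over all tested probe sets in these fits are not given here. These shifts therefore cannot be read as particular to the members. The P450 median ranged from -0.79 to -0.60 in wild type, -0.20 to +0.11 in ire1a ire1b, -0.72 to -0.41 in the interaction and -0.06 to +0.17 between genotypes under mock, and the UGT interaction median from -0.055 to +0.105.

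Pairs of same-numbered arrays correlated at 0.017 to 0.131 in wild type, 0.082 to 0.392 between genotypes under mock and -0.095 to 0.025 under tunicamycin, and 4, 6 and 1 of 6 arrays correlated best with their own number. The planned search for N-terminal hydrophobic stretches was not run. MAS5 scaling hides a shift shared by most transcripts, and dim probe sets carry the widest errors, and 39 of 82 members were below the limit of the reported fits.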

Other observations

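Probe sets assigned to several genes, which were not members, included 3 tested ones with a UGT symbol. The probe set of UGT73B2 and UGT73B3 differed by +0.09 ± 0.26 in wild type (UGT73B2;UGT73B3, log2 ± SE, limma adjusted p = 0.901), that of UGT89B1 and AT1G73885 by +0.15 ± 0.23 (AT1G73885;UGT89B1, 0.804) and that of UGT71D1 and AT2G29710 by +0.30 ± 0.14 (UGT71D1;AT2G29710, 0.344). The last had all wild-type tunicamycin arrays above all wild-type mock arrays, with 358.6, 391.6 and 409.3 against 295.0, 334.7 and 315.0. None passed.

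Of the 3 tested UGT73B genes, UGT73B4 differed by +0.69 ± 0.31, its neighbour UGT73B5 by +0.50 ± 0.28 and UGT73B1 by +0.30 ± 0.45 in ire1a ire1b under tunicamycin (log2 ± SE). In wild type they differed by -0.02 ± 0.31, -0.17 ± 0.28 and +0.06 ± 0.45 in that order. The interactions did not pass, with limma adjusted p of 0.606, 0.595 and 0.935.

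UGT72E1 was lowest on array 3 in every group, at 1144 in wild-type tunicamycin, 1258 in wild-type mock, 893.6 in ire1a ire1b tunicamycin and 1175 in ire1a ire1b mock, against 1583 or more on the other arrays. CYP71B23 was likewise lowest on array 3 in every group, at 295.9, 447.2, 542.0 and 616.0 in that order.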
